A study of Sus scrofa with 5 samples.

Results

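Fc receptors bind the constant part of antibodies and tie the antibody response to phagocytes, granulocytes and NK cells. The activating receptors for IgG signal through a tyrosine motif (ITAM) that is docked by the kinase SYK, carried either in their own tail or by the partner chains FCER1G and CD247. The inhibitory receptor FCGR2B carries an opposing motif (ITIM) that recruits the phosphatase INPP5D. FCGRT, the heavy chain of the neonatal Fc receptor, works differently: with B2M it salvages IgG from breakdown inside endothelial, epithelial and myeloid cells. A kidney placed across species meets antibodies of the recipient, and these receptors are a route by which bound IgG engages recipient leukocytes.

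The genes described were 8 named Fc receptor genes, FCGR1A, FCGR2A, FCGR2B, FCGR3A, FCGR3B, FCER1G, FCAR and FCGRT, chosen by name and not by any value. All 8 were listed among 59385 symbols counted over the human genome (the human table), and 3 of them (FCGR1A, FCER1G and FCAR) among 15235 symbols counted over a pig genome (the pig table). FCGR2A, FCGR2B, FCGR3A, FCGR3B and FCGRT of the graft were not analysed here.

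Bulk RNA sequencing covered 5 kidney libraries of the second pig-to-human transplantation case. The controls were 2 libraries of untransplanted control kidney at 0 h, and the xenograft gave 1 biopsy each at 12, 24 and 48 h. The labels name the organism as pig and give no genotype, strain, age or drug treatment for graft or controls, and nothing says that the controls came from separate animals. All 3 biopsies came from a single graft in a single recipient, so p-values measure only the spread between these libraries. The label field for cell type reads dissociated kidney cells, while the protocol describes core biopsies. Kidney identity was plain in the pig table, where the tubular uromodulin gene UMOD held between 132513 and 370913 counts in each library.

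Pig-table totals ran from 56129925 to 71108823 counts and human-table totals from 13385369 to 19735174. The controls contained no recipient tissue but still gave human-table totals of 13385369 and 15056369, so pig reads also count in the human table, and the control value of a human-table gene shows the background at the control level of the pig gene. Levels below are CPM on the pig-table total, that is, counts divided by the total pig-table count of the same library and scaled as CPM. In bulk tissue, a change in the number of cells of a type and a change in RNA per cell cannot be told apart. UMOD was itself counted between 31716 and 88719 times in the human table.

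**Figure D1:**
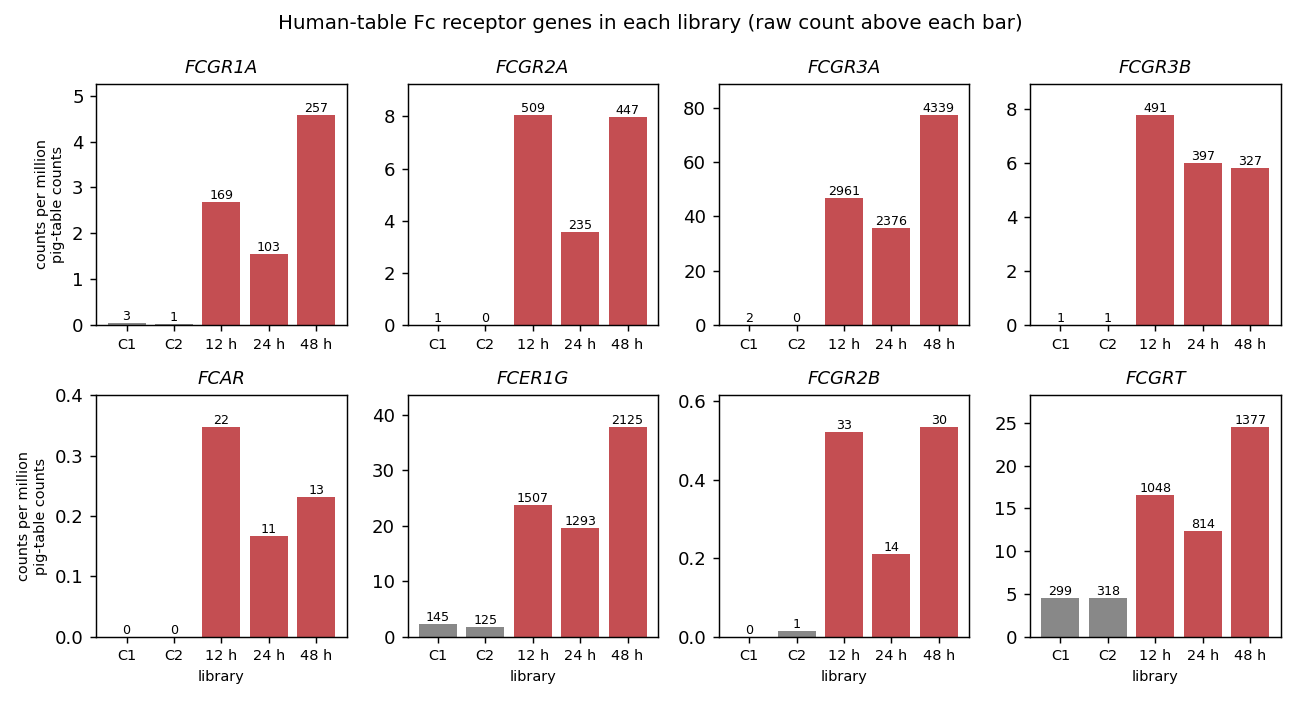
Human-table level of each Fc receptor gene (CPM on the pig-table total, linear axes from 0, a separate scale per gene) in control replicates 1 and 2 (C1, C2, grey) and in the xenograft biopsies at 12, 24 and 48 h (red), with the raw count above each bar. FCGR1A, FCGR2A, FCGR2B, FCGR3A, FCGR3B and FCAR held 3 counts or fewer in each control, whereas FCER1G and FCGRT held from 125 to 318.

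Transcripts of every activating IgG receptor were present in the biopsies and almost absent from the controls. FCGR3A, the receptor of NK cells and a subset of monocytes, went from 2 (replicate 1) and 0 (replicate 2) control counts to 2961, 2376 and 4339 at 12, 24 and 48 h. Its level was 46.8, 35.9 and 77.3 CPM at these times. The ratio of biopsies to controls was 3573 with a 95% counting interval of 989 to 29508, which is wide because the control side rests on 2 counts. The test across all genes called FCGR3A higher (edgeR's quasi-likelihood test, 3 biopsies against 2 controls, adjusted p = 1.03e-05).

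FCGR2A, an activating receptor of myeloid cells and platelets with its own ITAM, had 1 and 0 control counts and 509, 235 and 447 counts in the biopsies. Its level of 8.05, 3.55 and 7.96 CPM was thus similar at 12 and 48 h and lowest at 24 h. The ratio to the controls was 879.6 (counting interval 158 to 34772, adjusted p = 3.88e-05). FCGR1A, the high-affinity IgG receptor of monocytes and macrophages, had 3 and 1 control counts against 169, 103 and 257 in the biopsies. At 2.67, 1.56 and 4.58 CPM it was highest at 48 h, and its ratio to the controls was 97.7 (counting interval 37.9 to 359.8, adjusted p = 0.000176).

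FCGR3B, a receptor of neutrophils held in the membrane by a lipid anchor without a signalling tail, had 1 count in each control and 491, 397 and 327 counts at 12, 24 and 48 h. Its level was 7.76, 6.0 and 5.83 CPM, and it was the 1 gene of the 8 whose lowest biopsy was 48 h. The ratio to the controls was 448.7 (counting interval 124 to 3709, adjusted p = 5.46e-06). FCAR, the IgA receptor of myeloid cells, had the fewest counts of the 8 in the biopsies, with 0 counts in each control and 22, 11 and 13 in the biopsies. Set against a floor of 3 counts per control library, FCAR was at least 5.67-fold higher in the biopsies (adjusted p = 0.00492). FCAR was not tested without the 12 h or the 48 h biopsy, since it then fell under the count filter.

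The inhibitory receptor was also recovered, at few counts. FCGR2B had 0 and 1 control counts and 33, 14 and 30 counts at 12, 24 and 48 h, a level of 0.522, 0.212 and 0.534 CPM. The ratio to the controls was 56.9 (counting interval 9.91 to 2275, adjusted p = 0.00357).

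FCER1G and FCGRT stood on a visible background. FCER1G, the shared signalling chain of FCGR1A, FCGR3A and FCAR, had 145 and 125 control counts and 1507, 1293 and 2125 in the biopsies, or 2.20 and 1.76 CPM against 23.8, 19.5 and 37.9. It was 7.81-fold higher (log2 fold change 2.96 ± 0.25, SE, adjusted p = 3.88e-05). With pig-table totals as library size, the scale of the levels and ratios given above, its log2 fold change was 3.77 ± 0.32, and the ratio of counts was 13.5 (counting interval 11.9 to 15.3). FCGRT had 299 and 318 control counts and 1048, 814 and 1377 in the biopsies. Its levels were 4.54 and 4.47 CPM (controls) and 16.6, 12.3 and 24.5 (biopsies). The fitted rise of FCGRT was 2.23-fold (log2 1.16 ± 0.24, adjusted p = 0.0046). It missed the threshold without control replicate 1 (log2 0.997 ± 0.319, adjusted p = 0.0705).

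The size of the FCGRT rise also depended on the scaling. With pig-table totals as library size, the median of all human-table genes moved from a log2 fold change of 0.05 to 0.84, and FCGRT moved with it to 1.98 (adjusted p = 7.31e-07). The graft's own FCGRT gene was not analysed here, so the part of pig reads in the human-table FCGRT counts was not tested.

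All 8 genes were called higher in the human table, against 19.3% of all 18401 genes tested. The median log2 fold change was 6.24 over the 8 genes and 0.05 over all genes, and the fitted values of genes near 0 in the controls depend on the prior count. With so few control reads, only high biopsy counts carry a gene past the filter, and of the 868 tested genes with at most 4 control counts 92.4% were called higher. FCGR1A, FCGR2A, FCGR2B, FCGR3A, FCGR3B and FCAR belong to that class, so their calls are the usual outcome for it.

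Several of these genes have near-identical neighbours, and how reads were shared between copies was not given in the sources used here. FCGR2C, a copy close to FCGR2A and FCGR2B, held 0 counts in each control and 27, 6 and 21 in the biopsies. That was 4.75%, 2.35% and 4.22% of the summed FCGR2A, FCGR2B and FCGR2C counts, with overlapping exact 95% intervals. FCGR1B and FCGR1CP, copies of FCGR1A, together took 22.5%, 30.9% and 27.6% of the counts of the 3 copies, and their intervals overlapped too (17.1 to 28.6%, 23.6 to 39.0% and 23.0 to 32.6%). The split between FCGR3A and FCGR3B, and the counts of FCGR2B, are uncertain for the same reason.

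The balance of activating and inhibitory receptors was followed as the share of FCGR2B in the summed human-table counts of FCGR1A, FCGR2A, FCGR2B and FCGR3A. Gene lengths were not used, so a share is one of counts and not of transcripts, and only its course over the biopsies is described. FCGR2B took 0.899% of 3672 counts at 12 h (exact 95% binomial interval 0.619 to 1.26%), 0.513% of 2728 at 24 h (0.281 to 0.86%) and 0.591% of 5073 at 48 h (0.399 to 0.843%). The share was highest at 12 h, and the 3 intervals overlapped. Overlap of separate intervals is not a test of a difference, so it cannot decide whether the balance shifted. Intervals cover counting error alone, and the share itself was not tested across times. The controls, with 6 and 2 counts of the 4 receptors, gave no usable share.

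**Figure D2:**
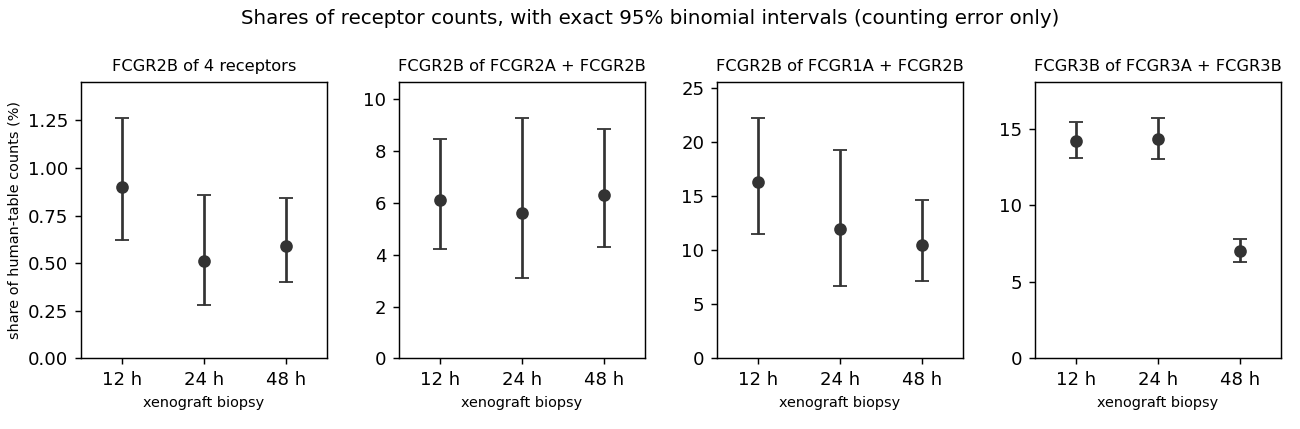
Share of human-table counts (percent, linear axes from 0) in each xenograft biopsy for FCGR2B among 4 IgG receptors, FCGR2B against FCGR2A, FCGR2B against FCGR1A, and FCGR3B against FCGR3A. Points are single biopsies and bars exact 95% binomial intervals, which overlap across times for FCGR2B and separate 48 h from 12 and 24 h for FCGR3B.

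Taken receptor by receptor, the balance differed in its course. Against FCGR2A, FCGR2B kept a nearly level share of 6.09%, 5.62% and 6.29% (intervals 4.23 to 8.44%, 3.11 to 9.25% and 4.28 to 8.86%). FCGR2A counts per FCGR2B count were 15.4, 16.8 and 14.9. Against FCGR1A, the share of FCGR2B was 16.3%, 12.0% and 10.5%, with overlapping intervals (11.5 to 22.2%, 6.70 to 19.3% and 7.16 to 14.6%). FCGR1A counts per FCGR2B count were 5.12, 7.36 and 8.57. Against FCGR3A, the share of FCGR2B was 1.10%, 0.586% and 0.687% (intervals 0.760 to 1.54%, 0.321 to 0.981% and 0.464 to 0.979%). FCGR3A counts per FCGR2B count were 89.7, 169.7 and 144.6. This pair set the course of the summed share, since FCGR3A made up 80.6%, 87.1% and 85.5% of the 4 receptors' counts.

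Among the other shares, those of FCGR3B, FCGR2A and FCGR3A moved by more than their intervals. FCGR3B took 14.2% of the summed FCGR3A and FCGR3B counts at 12 h (13.1 to 15.4%), 14.3% at 24 h (13.0 to 15.7%) and 7.01% at 48 h (6.29 to 7.78%). The 48 h biopsy was thus below the others by more than counting error. FCGR2A took 13.9%, 8.61% and 8.81% of the 4 IgG receptors' counts (12.8 to 15.02%, 7.59 to 9.73% and 8.05 to 9.63%). Its share was thus highest at 12 h by more than counting error. The FCGR3A share of these counts was lowest at 12 h (79.3 to 81.9%, against 85.8 to 88.3% at 24 h and 84.5 to 86.5% at 48 h).

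Within the xenograft, no Fc receptor gene of the human table passed the test of change per 24 h. By edgeR's quasi-likelihood test 0 of 8 were called, against 1.12% of all genes in either direction, 0.924% higher and 0.196% lower, while 2 had an unadjusted p under 0.05 (FCER1G and FCGR3A). DESeq2 also called 0. The largest positive slope was that of FCGR1A at log2 0.55 ± 0.28 per 24 h (adjusted p = 0.507), followed by FCGR3A at 0.46 ± 0.18 (0.365), FCER1G at 0.41 ± 0.16 (0.341) and FCGRT at 0.36 ± 0.18 (0.504). FCGR2A and FCGR2B had slopes of 0.02 ± 0.29 and 0.06 ± 0.45. FCGR3B and FCAR were below 0, at -0.34 ± 0.20 (adjusted p = 0.583) and -0.41 ± 0.51 (0.832).

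**Figure D3:**
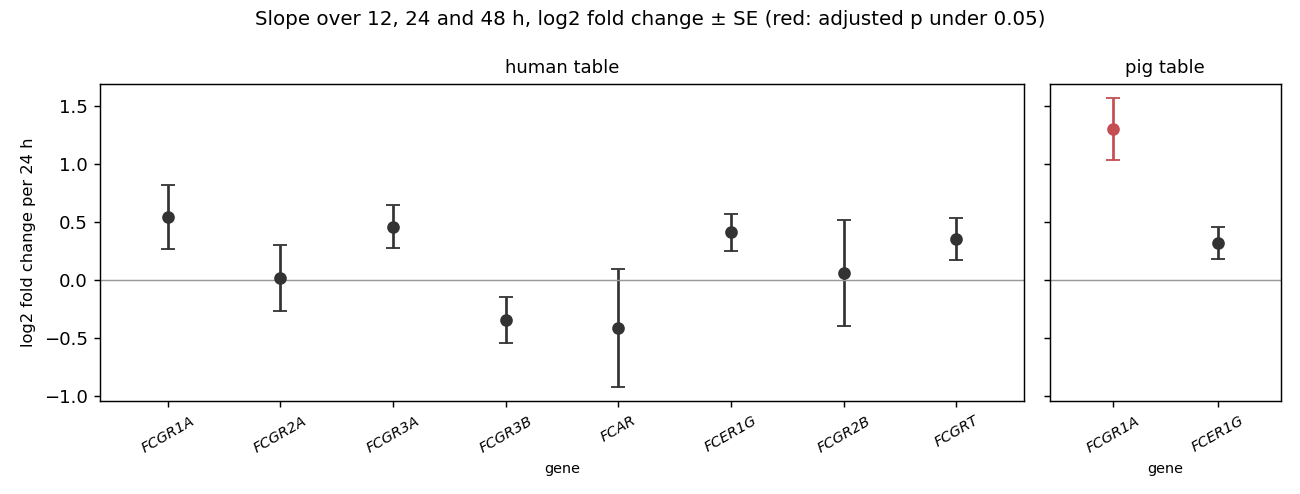
Slope over 12, 24 and 48 h for each gene (log2 fold change per 24 h, with bars of 1 SE) in the human table (left) and the pig table (right), with genes past an adjusted p of 0.05 in red. The FCGR1A slope of the pig table, 1.30, is the 1 value that passed, and FCGR3B and FCAR are the genes whose slopes are below 0.

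The course was not a straight line. In 7 of the 8 genes the 24 h biopsy was the lowest of the 3, on the scale of pig-table counts and on that of human-table counts. From 12 to 24 h the level of FCGR2A changed by a ratio of 0.441 (counting interval 0.376 to 0.516), FCGR2B by 0.405 (0.200 to 0.779), FCGR1A by 0.582 (0.451 to 0.749) and FCGR3A by 0.767 (0.726 to 0.81). From 24 to 48 h FCGR1A changed by 2.94 (2.33 to 3.73), FCGR2A by 2.24 (1.91 to 2.64), FCGR3A by 2.15 (2.05 to 2.26), FCGRT by 1.99 (1.83 to 2.18) and FCER1G by 1.94 (1.81 to 2.08). FCGR3B did not share this step, at 0.971 (0.836 to 1.13). Without the 12 h biopsy, a line between 24 and 48 h was called for FCGR1A (log2 1.32 ± 0.36, adjusted p = 0.00988) and FCGR3A (0.87 ± 0.24, adjusted p = 0.0115), with the spread then taken from the control pair alone.

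Summed markers of neutrophils, of monocytes and macrophages and of NK cells were also lowest at 24 h among the biopsies. The summed T cell markers and interferon gamma response genes were lowest at 24 h too. Some markers did not follow their sum: CD14, C1QA, C1QB, C1QC, CSF1R, CXCR2 and NCAM1 were higher at 24 h than at 12 h. For CSF1R and CXCR2 the counting interval of that ratio included no change. All 10 neutrophil markers were called higher than in the controls, where 6 of them were at 0 in each library, against 19.3% of all genes and 92.4% of those with at most 4 control counts. Their summed level was 0.197 and 0.0844 CPM in control replicates 1 and 2, 208.1 at 12 h, 123.8 at 24 h and 154.4 at 48 h. From 12 to 48 h the neutrophil chemokine receptor genes CXCR1 and CXCR2 changed by ratios of 0.680 and 0.691 and the granule protein gene S100A12 by 0.638, next to 0.750 (0.650 to 0.865) for FCGR3B. CSF3R, the receptor of the granulocyte growth factor, was at 0.938 (0.817 to 1.08).

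Of 11 monocyte and macrophage markers tested, 9 were called higher, against 19.3% of all genes. The summed level of the 12 listed was 28.3 and 25.4 CPM (controls) and 437.7, 400.1 and 726.8 (biopsies). Complement C1q genes, typical of macrophages, stood out, with 48 h to 12 h ratios of 3.99 for C1QA, 4.64 for C1QB and 4.48 for C1QC. C1QA, C1QB, C1QC and the macrophage growth factor receptor gene CSF1R were called in the slope, where 0.924% of all genes were called higher. In the pig table the 48 h to 12 h ratios were similar, at 4.16 for C1QA, 4.16 for C1QB and 3.34 for C1QC. For CSF1R the ratio was 2.56 in the human table and 2.79 in the pig table. The part of pig reads in the human-table counts of these genes was not tested. The slope called 0 of the monocyte and macrophage markers without the 48 h biopsy and 7 without the 12 h biopsy.

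Of 10 NK cell markers 8 were called higher, against 19.3% of all genes and 92.4% of those with at most 4 control counts. Summed levels of the 10 were 2.15 and 0.731 CPM (controls) and 16.5, 13.7 and 37.0 (biopsies). The lectin receptor gene KLRD1 changed 1.83-fold from 12 to 48 h and the perforin gene PRF1 2.52-fold, next to 1.65 (1.58 to 1.73) for FCGR3A. The part of each cell type in the Fc receptor counts was not tested.

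**Figure D4:**
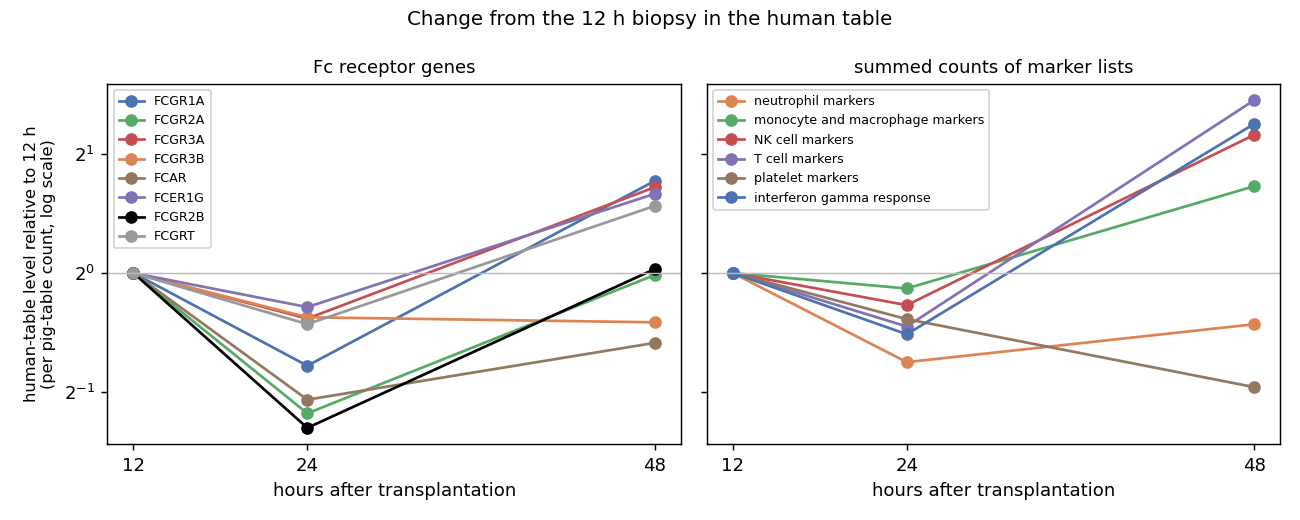
Human-table level relative to the 12 h biopsy (per pig-table count, log2-scaled axis) at 12, 24 and 48 h, for the 8 Fc receptor genes (left) and for the summed counts of marker lists (right). FCGR3B ended at 0.750 and the neutrophil list at 0.742, while FCGR3A ended at 1.65, the monocyte and macrophage list at 1.66 and the NK cell list at 2.24.

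FCGR2B is the main Fc receptor of B cells, whose 8 listed markers summed to 19 and 16 control counts and 45, 58 and 118 in the biopsies. The B cell genes MS4A1, CD79A, PAX5 and CD22 held at most 6 human-table counts in any biopsy, while CD79B, a chain of the B cell receptor complex, held 0 in each control and 21, 22 and 45 in the biopsies and was called higher. BANK1, a B cell scaffold gene, held 14 and 15 control counts and 15, 32 and 57 in the biopsies and was not called (adjusted p = 0.438). Its 48 h to 12 h ratio was 4.28 (2.39 to 8.14) in the human table and 4.04 (3.56 to 4.60) in the pig table. The part of pig reads in the human-table BANK1 counts was not tested. The list for mast cells, basophils and eosinophils summed to 969 and 783 counts in controls and 1729, 1902 and 1513 in biopsies, nearly all of it KIT and GATA2, which were not called (adjusted p = 0.0804 and 0.571), while the mast cell protease genes CPA3 and TPSAB1 were at 0 in all 5 libraries. The T cell list reached a summed 16.1 CPM at 48 h, of which CD4, also present on monocytes, made up 728 of 906 counts, while CD3D held 3, 3 and 8. The platelet genes PPBP and PF4 changed by 0.428 and 0.225 from 12 to 48 h.

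Transcripts of the ligands, the antibodies themselves, did not pass the test. Of 12 listed genes (immunoglobulin constant chains and the joining chain JCHAIN) 7 were tested, and 0 were called by edgeR's quasi-likelihood test, 0 had an unadjusted p under 0.05 and 0 were called by DESeq2. With pig-table totals as library size 4 were called higher, in a fit that called 10779 of 18401 genes in either direction. IGHG1 held 14 and 5 control counts and 15, 27 and 10 in the biopsies, and IGHG2 held 19 and 13 against 32, 54 and 21. The groups overlapped for IGHG1, while IGHG2 levels were 0.288 and 0.183 CPM (controls) against 0.506, 0.816 and 0.374 (biopsies). With pig-table totals as library size, the median log2 fold change of all human-table genes was 0.84. How many of all genes separate the groups on this scale was not counted. Antibody protein in the tissue was not measured by these libraries.

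Of the 2 receptor genes tested in the pig table, 1, FCER1G, was called against the controls, where 37.5% of 12620 genes were called in either direction and 18.5% higher. Pig-table FCER1G had 395 and 403 control counts and 1538, 1552 and 1949 at 12, 24 and 48 h, or 5.99 and 5.67 CPM against 24.3, 23.5 and 34.7. It was 3.33-fold higher (log2 1.73 ± 0.20, adjusted p = 0.00123). Its slope did not pass (log2 0.32 ± 0.14 per 24 h, adjusted p = 0.256).

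Pig-table FCGR1A had 46 and 62 control counts and 102, 110 and 339 in the biopsies, so the 48 h biopsy stood far above the others. Its level was 0.698 and 0.872 CPM (controls) and 1.61, 1.66 and 6.04 (biopsies). The comparison with the controls did not pass (log2 1.44 ± 0.66, adjusted p = 0.127). FCGR1A was called in the slope, where 4.33% of genes were called (3.34% higher and 0.983% lower), at 2.47-fold per 24 h (log2 1.30 ± 0.27, adjusted p = 0.0312). The 48 h biopsy decides this call: without it the slope was 0.21 ± 0.72 (adjusted p = 0.904). FCAR was at 0 in all 5 pig-table columns.

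**Figure D5:**
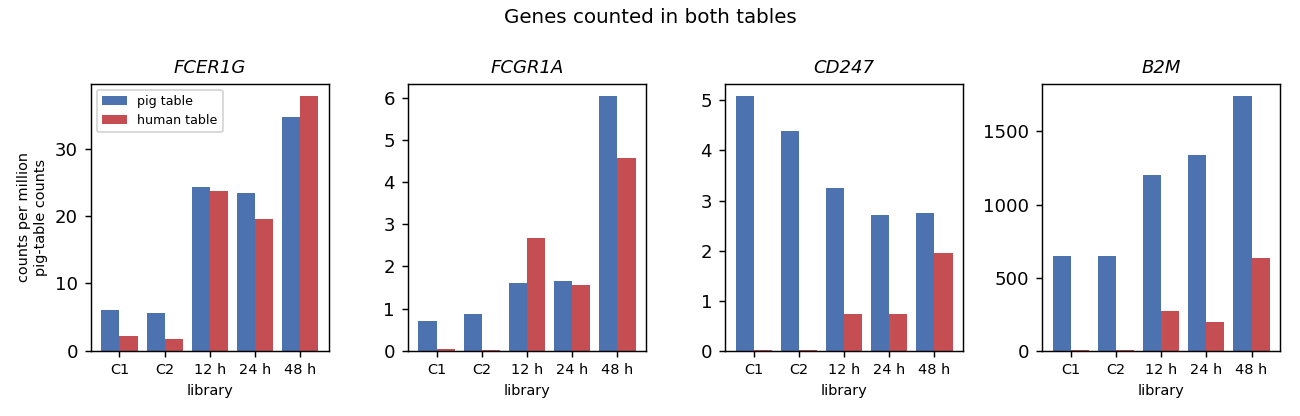
Level in the pig table (blue) and the human table (red) of 4 genes counted in both (CPM on the pig-table total, linear axes from 0) in control replicates 1 and 2 (C1, C2) and the 3 biopsies. FCER1G was counted about equally in both tables in the biopsies, FCGR1A reached 6.04 in the pig table at 48 h, CD247 was lower in the pig table and higher in the human table than in the controls, and B2M was higher in both.

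Counting a gene in both tables raises the question of how many reads cross. In the controls, human-table FCER1G stood at 0.310 and 0.367 counts per pig-table count, and in the biopsies at 0.980, 0.833 and 1.09. At the higher control ratio, the pig-table counts of the biopsies correspond to 564.6, 569.7 and 715.5 human-table counts. That leaves 942.4, 723.3 and 1410 of the measured FCER1G counts. For FCGR1A the higher control ratio was 0.0652, which leaves 162.3, 95.8 and 234.9 of 169, 103 and 257 counts. The reverse crossing, of human reads into the pig table, has no control library, and its part in the pig-table rise of FCER1G and FCGR1A was not tested.

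The partner chain CD247 moved in opposite directions in the tables, and B2M rose in both. CD247, the ITAM chain that FCGR3A uses in NK cells and that T cell receptors also use, had 1 human-table count in each control and 46, 49 and 110 in the biopsies (ratio 75.7, counting interval 20.7 to 629, adjusted p = 0.000608). Pig-table CD247 fell, from 335 and 312 counts to 205, 180 and 154 (log2 -1.19 ± 0.23, adjusted p = 0.00739), a call lost when either control was left out (adjusted p = 0.065 for replicate 1 and 0.0913 for replicate 2). B2M, the light chain of the neonatal receptor and of class I antigens, had 326 and 311 human-table control counts and 16987, 13193 and 35645 in the biopsies (ratio 76.3, counting interval 70.6 to 82.6). The fit with TMM scaling gave 44.1-fold for B2M (log2 5.46 ± 0.56, adjusted p = 0.000875). Pig-table B2M rose 1.56-fold (log2 0.64 ± 0.21, adjusted p = 0.0467), a call lost on leaving out control 1 (adjusted p = 0.282), control 2 (0.136), the 24 h biopsy (0.0788) or the 48 h biopsy (0.0724).

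Of 19 genes downstream of activating Fc receptors, 16 were higher in the human table and 1 lower, against 19.3% and 15.9% of all genes. The median log2 fold change was 2.78, against 0.05 over all genes. The list's summed human-table counts were already 5239 and 4666 in control replicates 1 and 2. The part of pig reads in its biopsy counts was not tested. NCF1, a cytosolic subunit of the phagocyte oxidase, had 2 and 0 control counts and 131, 59 and 209 in the biopsies. CYBB, the catalytic subunit of that oxidase, rose 36.2-fold (log2 5.18 ± 0.40, adjusted p = 9.1e-05) and the kinase gene SYK 26.3-fold (log2 4.72 ± 0.43, adjusted p = 7.2e-05). The exception was CYBA, the membrane partner of CYBB, which fell by 1.30 on the log2 scale, and fell by 1.67 in the pig table, where its control counts were 21089 and 24508. CYBA was not lower with pig-table totals as library size, when 0 genes of the list were called lower in the human table.

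Of 18 such genes tested in the pig table, 8 rose and 2 fell, against 18.5% and 19% of all genes. The median log2 fold change was 0.69 over the list and 0.03 over all genes. The kinase genes FGR and BTK rose 4.90-fold and 3.41-fold, and RAC2, a small GTPase of leukocytes, fell with CYBA. In fits lacking control replicate 1 or 2, 3 genes rose in each and 1 fell in each, and without the 24 h biopsy 1 fell. In the pig-table slope 2 of 18 rose, against 3.34% of all genes, among them BTK (log2 0.85 ± 0.19 per 24 h, adjusted p = 0.0414). Of the 19 human-table genes, 0 were called in the slope by edgeR, against 1.12% of all genes, and 0 by DESeq2. An unadjusted p under 0.05 was found by edgeR for 8 of them. The human-table count was 9 without the 12 h biopsy, 2 without the 24 h biopsy and 3 with no count filter. The pig-table count was 0 higher and 1 lower without the 48 h biopsy, 5 and 7 higher without the 12 h and 24 h biopsies, and 1 higher on leaving out either control.

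Of 8 genes of the inhibitory arm, 6 were higher in the human table and 1, INPPL1, lower, against 19.3% and 15.9% of all genes. The median log2 fold change of the list was 0.88. Its summed human-table counts were already 4869 and 3982 in control replicates 1 and 2. The part of pig reads in its biopsy counts was not tested. DOK2, an adaptor that restrains kinase signalling, rose 56.6-fold (log2 5.82 ± 0.46, adjusted p = 3.6e-05) from 2 and 7 control counts to 452, 296 and 478. INPP5D, the phosphatase recruited by FCGR2B, rose 3.28-fold (log2 1.72 ± 0.34, adjusted p = 0.00396), DOK1 2.82-fold and the ubiquitin ligase gene CBL 1.88-fold. Without control replicate 2 the count was 2 higher and 0 lower, and INPPL1 did not pass without control replicate 1 or with pig-table totals as library size. Of 8 pig-table genes 4 rose, led by DOK2 at 2.45-fold and DOK1 at 2.33-fold, and INPPL1 fell. Over all pig-table genes 18.5% rose and 19% fell. On leaving out control 1 or 2 the pig-table count was 1 or 0 higher and 0 lower. Pig-table INPP5D was at log2 0.31 ± 0.23 (adjusted p = 0.315). Whether the activating and inhibitory lists differ was not tested.

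Receptors that share the FCER1G chain were few in the human table, where the 7 listed summed to 11.8, 7.24 and 14.4 CPM in the biopsies. LILRA2, an activating receptor of myeloid cells, held 0 counts in each control and 474, 278 and 467 in the biopsies, and CLEC4E, a lectin that senses dying cells and mycobacteria, 0 against 194, 133 and 234. OSCAR, a collagen receptor of myeloid cells, had 0 and 1 against 71, 58 and 82. These 3 were the members tested of 7, and each was lowest at 24 h. All 3 belong to the tested genes with at most 4 control counts, of which 92.4% were called higher. Pig-table NCR1, an activating receptor of NK cells, fell from 18 and 17 counts to 2, 4 and 0 (adjusted p = 0.0138), a call lost when either control was left out.

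Among other Fc receptors, 6 of 7 human-table genes tested were higher (FCGR1B, FCGR1CP, FCGR2C, FCMR, FCRL3 and TRIM21), against 19.3% of all genes. All of these but TRIM21 held 0 counts in each control. Of the tested genes with at most 4 control counts 92.4% were called higher, so calls for FCGR1B, FCGR1CP, FCGR2C, FCMR and FCRL3 are the usual outcome. The FCGR2C call was lost on leaving out control 1 or 2 (adjusted p = 0.0722 and 0.0687), and that of FCGR1CP on leaving out control 1 (0.0505). FCMR, the IgM receptor, held 0 counts in each control and 34, 27 and 55 in the biopsies, and FCRL3, an Fc receptor-like gene of lymphocytes, 0 against 46, 35 and 29. TRIM21, a cytosolic antibody receptor, rose 9.04-fold (log2 3.18 ± 0.40, adjusted p = 0.000309). In the pig table FCER1A, which binds IgE, fell from 192 and 148 counts to 54, 105 and 54 (log2 -1.60 ± 0.37, adjusted p = 0.0142) and FCRLA fell from 100 and 64 to 46, 26 and 29. MS4A2, the beta chain of the IgE receptor, rose 2.54-fold. With either control left out 0 pig-table genes of this list were called lower, and without control 2 MS4A2 was not called. The polymeric immunoglobulin receptor gene PIGR rose in the pig-table slope (log2 0.57 ± 0.13 per 24 h, adjusted p = 0.0466).

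Interferon gamma induces FCGR1A. Its response genes rose in 10 of 13 members of the human table, against 19.3% of all genes. Among them were CXCL9, at 3 and 5 control counts against 699, 515 and 5062, and CXCL10, at 12 and 4 against 1798, 1048 and 8243. The count was 3 in each fit that left out a control, and 5 with no count filter. Of these genes IDO1, CXCL11 and GBP5 rose in the slope, by log2 2.37 ± 0.36, 1.82 ± 0.26 and 1.56 ± 0.28 per 24 h. That made 3 of 13 genes, against 0.924% of all genes called higher. That count was 0 on leaving out either control or the 48 h biopsy, but 11 without the 12 h biopsy, 10 without the 24 h biopsy, 9 with no count filter and 10 with pig-table totals. Of 10 pig-table genes 6 rose against the controls, where 18.5% of all genes rose, and fewer rose in each fit that left out a control.

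The genes whose profile over the 5 libraries lay nearest to that of FCER1G in the human table were NINJ2, ADGRE3, LINC01184, DHRS4-AS1 and TNFRSF8, with root mean square differences of 0.046 to 0.0879 on a centred log2 scale. These held 0 or 1 counts in each control, so their low end is set by the prior count of 2 and the likeness is a loose one. For FCGR2B the nearest were CCDC57, TMOD1, RHOU, IL6R and CYTOR (0.115 to 0.201). IL6R, the interleukin receptor of monocytes and neutrophils, had 22 and 25 control counts and 465, 271 and 435 in the biopsies, with the same low 24 h value.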

How the data were processed

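Total RNA of kidney core biopsies was sequenced after ribosomal RNA depletion, per the labels' protocols. The authors deposited 2 tables of raw counts by gene symbol; hg38 is named as a build per the submitters' processing notes, and the aligner, counter, strand setting and treatment of reads that fit both genomes are not given in the sources used here. XIST, TSIX and Y-linked symbols were removed first. Counts were analysed with edgeR 4.0.16 in R 4.3.3 (TMM scaling, filterByExpr with minimum count 10 and minimum total 15, robust quasi-likelihood test, Benjamini-Hochberg adjustment over all genes at 0.05), with DESeq2 1.42.0 as an alternative. SEs were derived from the log2 fold change and its F statistic. The comparison with controls had 2 controls and 3 biopsies; the slope was fitted over 12, 24 and 48 h, with the controls adding only to the spread. Intervals are exact binomial (95%, SciPy 1.17.1), with a floor of 3 counts. Fits were tested on simulated data. Genes named were all 8 receptors, up to 4 called genes per list by size of change, and genes bearing on a receptor; individual counts of others (in the marker, ligand and copy paragraphs) were chosen after their values were seen. The 8 genes and the 16 lists were chosen with earlier results of these data known. The shares of FCGR3B and of the gene copies, the count of receptor genes called and the subtraction of pig reads were added after seeing the data. Intervals and floors cover counting error only. No sequence table was used here. Some members of the lists are counted in their totals and not reported here by name.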

Additional observations from a re-analysis of the deposited data

How the results depend on the processing

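No paired analysis was possible because the biopsies carry no replicate number. The number of members called against the controls in the human table was 8 or, where FCAR was not tested or FCGRT did not pass, 7. Over all genes, calls against the controls numbered 6465 in the human table, 10779 with pig-table totals as library size and 2868 to 6222 with a library left out; in the pig table they numbered 4734, and 1191 to 5266 with a library left out. Slope calls in the human table numbered 206, but 788 without a count filter, 401 with pig-table totals and 38 to 972 with a library left out, with 0 to 2 of the 8 receptor genes called. In the pig table they numbered 546, but 857 by DESeq2 and 432 to 2765 with a library left out, with 0 to 1 receptor genes called. Human-table slopes changed sign without the 48 h biopsy for FCGR1A (-1.27), FCGR2A (-2.08), FCGR2B (-2.30), FCGR3A (-0.48), FCER1G (-0.29), FCGRT (-0.58) and B2M (-0.58), without the 24 h biopsy for FCGR2A (-0.07) and FCGR2B (-0.04), and with pig-table totals for FCGR2C (0.0345, against -0.05); the cause was not tested. Without the 12 h biopsy the slopes were larger, at 1.32 for FCGR1A, 0.93 for FCGR2A, 1.09 for FCGR2B, 0.87 for FCGR3A, 0.72 for FCER1G, 0.76 for FCGRT and 1.43 for B2M, of which those of FCGR1A, FCGR3A and B2M passed. The 48 h to 12 h ratio of FCGR2B was 1.02 per pig-table count and 0.956 per human-table count. The FCGR2B share without FCGR3A was 4.64%, 3.98% and 4.09% at 12, 24 and 48 h, and against FCGR2A alone 6.09%, 5.62% and 6.29%, by construction from fewer counts; adding FCGR3B or subtracting the control level kept it inside its interval. Depth limits FCGR2B and FCAR most, at 14 and 11 counts in their lowest biopsy.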
